A study of Mus musculus with 81 samples.

Results

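Clec7a single-positive microglia are defined here by their sorting gate: positive for Clec7a and negative for CD229 and CD11c. The comparison used the 6 libraries of this gate taken from mice fed 0.2% cuprizone for 5 weeks, of 81 libraries in the series. The 3 control libraries came from Cx3cr1CreERT2/WT mice (Cre) and the other 3 from Cx3cr1CreERT2/WT::Mef2afl/fl mice (Mef2aKO). Both groups were adult male C57BL/6 mice on the same diet, and both carried 1 Cx3cr1CreERT2 allele, so the comparison does not show what that allele does. Each library held cells sorted from the pooled brains of 2 to 6 mice, so n counts pools and not animals. Cuprizone chelates copper, and on this diet oligodendrocytes die, myelin is lost and microglia clear what remains of it. The series sorted microglia from healthy and demyelinating brains to compare their expression and its regulators. The labels used here do not say when the Cre recombinase was induced.

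MEF2A is a MADS-box transcription factor that binds an A/T-rich sequence as a homodimer or with MEF2C or MEF2D. Class IIa histone deacetylases bind MEF2 factors and repress their targets, and kinases that export these deacetylases release that repression. MEF2 sites are common in the enhancers of microglia. Clec7a (Dectin-1) is a C-type lectin receptor that microglia raise around damaged myelin, CD229 is the SLAM family receptor encoded by Ly9, and CD11c is the integrin chain encoded by Itgax. The Cx3cr1 driver is active in microglia and also in macrophages at the borders of the brain.

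The 6 libraries held 5959509 to 10595623 counted reads each, within the 5959509 to 13972985 of the 29 libraries that were fitted together. Levels are CPM, reads scaled to a common library size after TMM normalisation. Between replicates of a group, the chi-square per degree of freedom was 2.58 to 4.78, where counting noise alone gives about 1, so variation between pools set the precision of expressed genes. Microglial markers were high in all 6 libraries, with summed levels of 8017 to 9664 CPM in Cre and 8152 to 9148 CPM in Mef2aKO. Transcripts of the sorting markers followed the gate in the Cre libraries. Clec7a was at 558 CPM ± 30.7 (SD, n = 3), against 160 CPM ± 16.6 (SD, n = 3) in the Clec7a-negative gate of the same diet. Ly9 was at 39.7 CPM ± 16.5 (SD, n = 3), against 291 CPM ± 14.2 (SD, n = 3) in the gate positive for Clec7a and CD229. Itgax was at 326 CPM ± 14.7 (SD, n = 3), against 961 CPM ± 50.9 (SD, n = 3) in the gate positive for all 3 proteins.

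Mef2a itself was counted at 592, 650 and 686 CPM in the Cre libraries and at 656, 718 and 619 CPM in the Mef2aKO libraries. The groups overlapped. The log2 fold change (Mef2aKO minus Cre, as throughout) was 0.05 (SE 0.08, adjusted p = 0.883, edgeR quasi-likelihood test with Benjamini-Hochberg adjustment). A count over the whole transcript does not show whether the floxed part is missing from it, so the level of Mef2a does not check the genotype. The groups are therefore named by their labels. Mef2c was at 505, 576 and 592 CPM in Cre and 569, 596 and 561 CPM in Mef2aKO, and Mef2d at 361, 379 and 388 CPM against 375, 388 and 358 CPM. Neither passed the test, with log2 fold changes of 0.05 and -0.01. On the deposited TPM scale, which accounts for transcript length, Mef2a was the most abundant of the 4 MEF2 genes in Cre at 165 TPM ± 7.59 (SD, n = 3), followed by Mef2c at 125 TPM ± 7.31, Mef2d at 99.03 TPM ± 1.37 and Mef2b at 0.035 TPM ± 0.0606.

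Of the 12 tested genes in a list of MEF2 factors, class IIa histone deacetylases and their kinases, 1 fell and none rose, with 3.70% of all tested genes called in either direction. That gene was Hdac7, a class IIa deacetylase, at 6.24, 8.54 and 8.52 CPM in Cre and 2.84, 3.23 and 2.75 CPM in Mef2aKO. The groups did not overlap, and the log2 fold change was -1.39 (SE 0.26, adjusted p = 0.000567). Hdac4, Hdac5 and Hdac9, which belong to the same class, did not pass the test and had log2 fold changes of 0.07, 0.03 and 0.28. Of 13 tested genes known as MEF2 targets from other cell types, 1 fell: the zinc finger factor Klf4, at 44.2, 25.4 and 33.8 CPM in Cre and 25.3, 12.9 and 13.7 CPM in Mef2aKO. Its log2 fold change was -0.97 (adjusted p = 0.0341), and the call was lost with DESeq2 (adjusted p = 0.0843) and without Cre library 1 (-0.72, adjusted p = 0.291), Cre library 3 (-0.99, adjusted p = 0.0732), Mef2aKO library 2 (-0.81, adjusted p = 0.203) or Mef2aKO library 3 (-0.82, adjusted p = 0.197). With DESeq2 none of that list fell and 1 rose. The median of the list was -0.11, against 0.00446 over all tested genes.

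The MEF2 consensus was searched in RefSeq promoters of build GRCm38.p6, from 250 bases before to 50 bases after the start of each gene. The motif reads the same on both strands. It was present in 212 of 10327 promoters of tested genes (2.05%), in 7 of 227 promoters of genes that fell (3.08%, exact Clopper-Pearson 95% interval 1.25 to 6.25) and in 2 of 140 promoters of genes that rose (1.43%, interval 0.173 to 5.07). The intervals of both sets include the share of all tested genes. The 7 genes that fell were Sema6d, Rgs7bp, Atp2c1, Pla2g2d, Filip1l, Dusp27 and Glcci1, and the 2 that rose were Cd22 and Tubgcp5. The windows of Rgs7bp, Pla2g2d, Dusp27 and Tubgcp5 lie at the start of the counted transcript. Those of Sema6d, Filip1l, Atp2c1, Glcci1 and Cd22 lie 520, 196, 26.1, 10.5 and 1.31 kb from it, so they belong to another start site than the one the counts were listed for. The promoters of Rgs7bp (chr13:105054881-105055180, minus strand) and Tubgcp5 (chr7:55793875-55794174, plus strand) are shown as 1 example of each direction whose window lies at the start of the counted transcript, and that of Mef2a (chr7:67372809-67373108, minus strand) because it holds a match of its own. Capitals mark the match, at bases 172 to 181, 53 to 62 and 249 to 258 of the window.
Rgs7bp: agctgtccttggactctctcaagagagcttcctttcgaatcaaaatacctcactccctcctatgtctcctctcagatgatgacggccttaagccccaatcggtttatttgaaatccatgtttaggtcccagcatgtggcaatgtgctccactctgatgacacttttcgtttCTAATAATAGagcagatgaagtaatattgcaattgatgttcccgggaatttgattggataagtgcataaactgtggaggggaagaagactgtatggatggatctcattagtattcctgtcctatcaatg
Tubgcp5: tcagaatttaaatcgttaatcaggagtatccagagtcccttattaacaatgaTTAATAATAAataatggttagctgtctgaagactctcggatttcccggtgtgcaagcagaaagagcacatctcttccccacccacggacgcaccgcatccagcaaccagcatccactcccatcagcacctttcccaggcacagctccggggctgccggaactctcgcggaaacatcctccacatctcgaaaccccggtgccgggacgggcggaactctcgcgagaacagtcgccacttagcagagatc
Mef2a: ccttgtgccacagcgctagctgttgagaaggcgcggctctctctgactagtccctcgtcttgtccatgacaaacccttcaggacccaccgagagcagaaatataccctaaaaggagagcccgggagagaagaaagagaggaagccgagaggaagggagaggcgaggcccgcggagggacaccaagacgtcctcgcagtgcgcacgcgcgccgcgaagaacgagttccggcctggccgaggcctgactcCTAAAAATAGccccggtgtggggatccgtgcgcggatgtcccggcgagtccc
Rgs7bp, a membrane anchor of G-protein regulators, was at 7.75, 7.97 and 10.3 CPM in Cre and 3.12, 2.96 and 1.91 CPM in Mef2aKO, a log2 fold change of -1.66 (SE 0.27, adjusted p = 0.000121). Tubgcp5, a subunit of the gamma-tubulin ring complex, was at 126, 141 and 158 CPM in Cre and 170, 179 and 175 CPM in Mef2aKO, a log2 fold change of 0.30 (SE 0.06, adjusted p = 0.0032). Neither gene overlapped between the groups. A match describes the letters in the window, not binding.

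Across the transcriptome, 488 of 13204 tested genes passed the test, 194 higher (1.47%) and 294 lower (2.23%) in Mef2aKO. The larger differences were mostly decreases: 95 genes were at least 2-fold lower and 27 at least 2-fold higher. The libraries of the groups did not overlap for 483 of the 488, against 18.8% of all tested genes. Without Cre library 1 the count was 315, and without each of the other libraries 332 to 377.

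**Figure D1:**
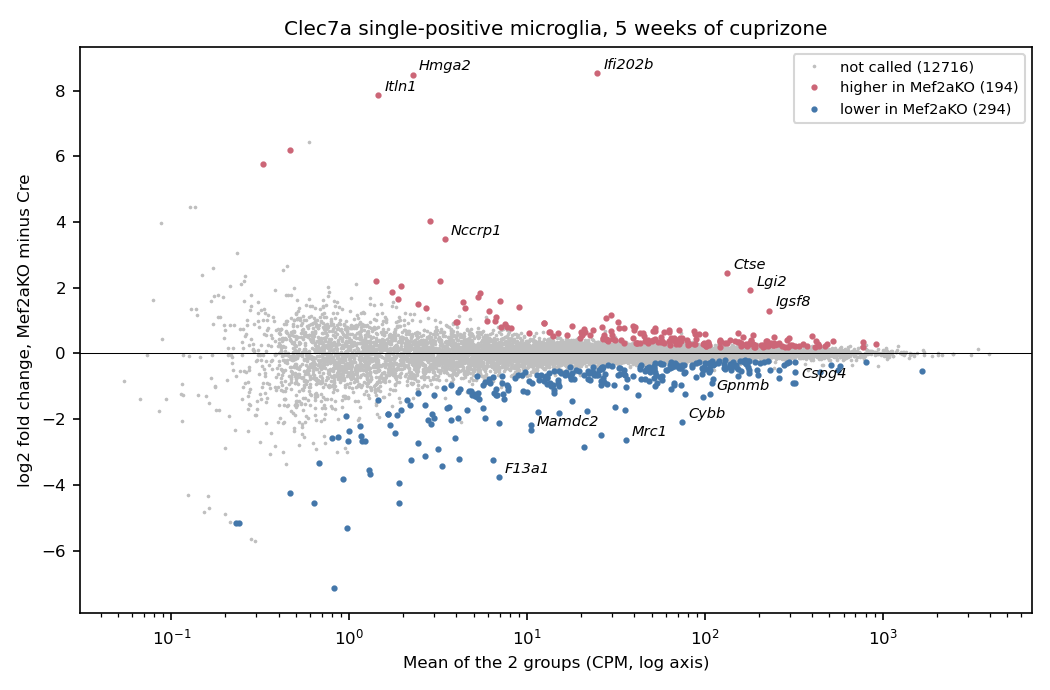
Log2 fold change of each gene (Mef2aKO minus Cre) against the mean level of the 2 groups in CPM on a log axis, 1 point a gene, with the 194 genes called higher in red and the 294 called lower in blue. Decreases of 2-fold or more are more numerous than increases, and the largest positive values belong to Ifi202b, Hmga2 and Itln1, which had 3 or fewer reads over the Cre libraries.

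Lgi2, Ctse and Gdpd5 were among the 15 largest increases of genes with at least 5 CPM whose groups did not overlap. The lack of overlap was a condition of that selection, so it adds no evidence for these genes. Lgi2, a secreted leucine-rich repeat protein, was at 70.4, 76.6 and 77.4 CPM in Cre and 318, 258 and 272 CPM in Mef2aKO, a log2 fold change of 1.92 (SE 0.13, adjusted p = 4.49e-12). Ctse, the endosomal aspartic protease cathepsin E, was at 39.0, 43.0 and 42.3 CPM in Cre and 197, 233 and 241 CPM in Mef2aKO, a log2 fold change of 2.44 (SE 0.18, adjusted p = 3.45e-11). Every Mef2aKO library was above every Cre library for both genes. Gdpd5, a glycerophosphodiester phosphodiesterase of choline lipid metabolism, was at 17.2, 22.2 and 14.6 CPM in Cre and 40.2, 45.4 and 37.9 CPM in Mef2aKO (1.17, SE 0.15, adjusted p = 2.05e-06). Ehd1, an ATPase of endosomal recycling, was at 23.3, 22.5 and 19.5 CPM in Cre and 41.3, 42.2 and 45.1 CPM in Mef2aKO (0.97, SE 0.15, adjusted p = 5.03e-05). The groups did not overlap for Ehd1 either. Ehd1 was not picked by that condition, but 483 of the 488 called genes had no overlap, so this adds little evidence.

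Lower-level genes also rose. Pdgfrb, a receptor for platelet-derived growth factor, was at 0.189, 0.569 and 0.174 CPM in Cre and 4.91, 2.02 and 9.08 CPM in Mef2aKO, and Nccrp1, an F-box protein, at 0.378, 1.02 and 0.174 CPM against 6.24, 7.66 and 5.13 CPM. Their log2 fold changes were 4.02 (adjusted p = 0.000388) and 3.48 (adjusted p = 1.99e-07). Pde10a, a cyclic nucleotide phosphodiesterase, Adamtsl2, a secreted matrix protein, Syt6, a synaptotagmin, Ripk4, a kinase, Pcp4, a calmodulin regulator, and Map3k19, a kinase, had mean levels of 2.13 to 4.79 CPM in Cre and log2 fold changes of 1.29 to 1.84. All 6 held their call when any 1 library was left out. Fads2, a fatty acid desaturase, and Hsd17b7, a sterol-synthesis reductase, rose by 1.37 and 1.10 on the log2 scale, but Fads2 lost its call without Cre library 1 (1.06, adjusted p = 0.174) or Mef2aKO library 2 (1.23, adjusted p = 0.0925), and Hsd17b7 without Cre library 1 (0.87, adjusted p = 0.126) or Mef2aKO library 1 (0.86, adjusted p = 0.126). Hmga2, an architectural chromatin protein, had no read in Cre and 121 reads over the Mef2aKO libraries, at 5.29, 4.84 and 3.46 CPM. Taking 3 counts over the Cre group as the floor, Hmga2 was at least 38.4-fold higher.

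**Figure D2:**
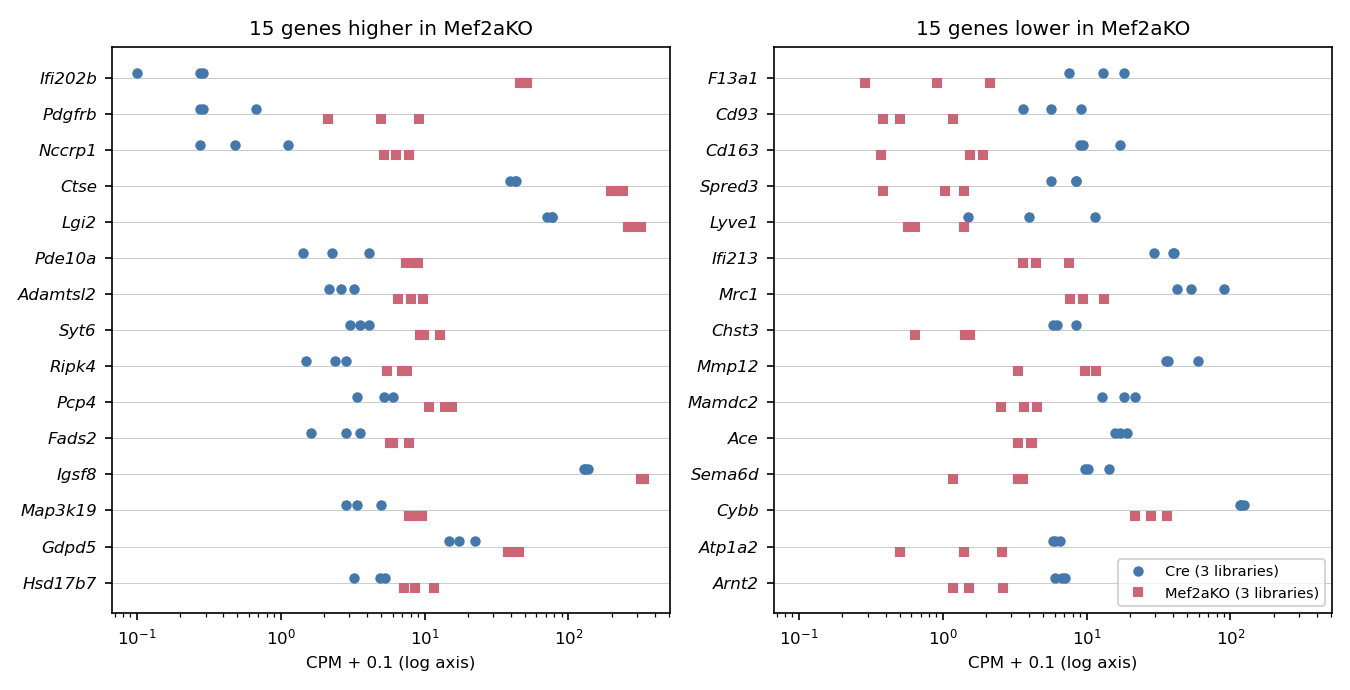
Level of each gene in each library (CPM + 0.1, log axis), circles for the 3 Cre and squares for the 3 Mef2aKO libraries, for the 15 genes with the largest increase and the 15 with the largest decrease among genes of at least 5 CPM whose groups do not overlap. Lyve1 has the narrowest gap between groups, with 1.39 CPM in the lowest Cre library and 1.31 CPM in the highest Mef2aKO library.

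Genes for secreted growth factors, matrix proteins and the enzymes that cut them fell more often than they rose: of 23 tested, 12 fell and 1 (Lgi2) rose, where 2.23% of all tested genes fell and 1.47% rose. The median log2 fold change of the list was -0.55, against 0.00446 over all tested genes, and the list was chosen with results of these libraries known. Mmp12, a metalloelastase of macrophages, was at 36.8, 59.4 and 35.5 CPM in Cre and 3.21, 9.68 and 11.5 CPM in Mef2aKO, a log2 fold change of -2.49 (SE 0.25, adjusted p = 3.47e-08). Mamdc2, a secreted protein with MAM domains, was at 21.7, 18.0 and 12.7 CPM in Cre and 3.59, 2.42 and 4.42 CPM in Mef2aKO (-2.34, SE 0.22, adjusted p = 2.01e-08). For both genes the lowest Cre library exceeded the highest Mef2aKO library, which was a condition of their selection among the largest decreases.

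Cspg4, the proteoglycan NG2, was at 425, 429 and 396 CPM in Cre and 223, 208 and 244 CPM in Mef2aKO (-0.89, SE 0.08, adjusted p = 2.13e-09). Vegfa, an angiogenic growth factor, was at 67.8, 68.7 and 70.6 CPM in Cre and 32.9, 31.7 and 40.5 CPM in Mef2aKO (-0.98, SE 0.12, adjusted p = 9.34e-07). Igf1, a growth factor for oligodendrocyte-lineage cells, was at 204, 232 and 202 CPM in Cre and 137, 136 and 147 CPM in Mef2aKO (-0.60, SE 0.13, adjusted p = 0.00389). None of these genes overlapped between the groups, and Igf1 did not pass the test of DESeq2 (adjusted p = 0.272). Postn, the matrix protein periostin, fell by 1.17, Adamts1, a proteoglycan-cleaving protease, by 0.70, and Hbegf, an EGF receptor ligand, by 1.2 on the log2 scale. Hbegf lost its call without Cre library 1 (-1.04, adjusted p = 0.068). Fn1, the matrix protein fibronectin, was at 1770, 1957 and 2140 CPM in Cre and 1108, 1513 and 1390 CPM in Mef2aKO (-0.55, adjusted p = 0.0401). Fn1 lost its call with DESeq2 (-0.56, adjusted p = 0.261) and without Cre library 1, 2 or 3 or Mef2aKO library 1 or 3, with log2 fold changes of -0.62, -0.55, -0.48, -0.43 and -0.58. Mmp14, a membrane-bound collagenase, fell by 0.35 (adjusted p = 0.0168) and lost its call without Cre library 1 or 2 or Mef2aKO library 1 or 2, at -0.35, -0.35, -0.34 and -0.34. Growth factors that did not pass the test included Pdgfa, Pdgfb and Gas6, with log2 fold changes of -0.20, -0.02 and 0.12.

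Disease-associated microglia are the state that phagocytic microglia enter around plaques and damaged myelin, and its genes did not move as a block. Of 29 tested, 7 fell and none rose, beside 2.23% of all tested genes that fell, and the median was -0.07. Gpnmb, a glycoprotein of the phagolysosome, was at 146, 159 and 142 CPM in Cre and 48.0, 61.7 and 80.0 CPM in Mef2aKO (-1.25, SE 0.14, adjusted p = 1.99e-07). Lgals3, the lectin galectin-3, was at 91.3, 93.0 and 77.6 CPM in Cre and 44.2, 43.7 and 53.5 CPM in Mef2aKO (-0.90, SE 0.10, adjusted p = 1.08e-07). Itgax was at 334, 335 and 309 CPM in Cre and 194, 180 and 207 CPM in Mef2aKO (-0.75, SE 0.12, adjusted p = 7.4e-05). All 3 genes were lower in every Mef2aKO library, and the decrease of Itgax lies within a gate that was sorted negative for its protein.

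Csf1, the ligand of the receptor that microglia need to survive, was at 644, 695 and 625 CPM in Cre and 466, 452 and 472 CPM in Mef2aKO (-0.50, SE 0.08, adjusted p = 3.65e-05). Spp1, the secreted phosphoprotein osteopontin, was at 477, 543 and 558 CPM in Cre and 334, 367 and 374 CPM in Mef2aKO (-0.55, SE 0.12, adjusted p = 0.0049), but did not pass the test of DESeq2 (adjusted p = 0.0501). Ccl6, a CC chemokine, fell by 0.57 (adjusted p = 5.58e-05). Igf1 was the seventh gene. The other 22 did not pass: Apoe, Trem2, Lpl and Cst7 had log2 fold changes of -0.01, -0.06, -0.07 and -0.12, and Clec7a was at 527, 588 and 561 CPM in Cre against 511, 601 and 577 CPM in Mef2aKO (0.01, adjusted p = 0.984). Clec7a was used for the sort, so its level in this gate is partly set by it.

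Of 25 tested homeostatic microglial genes 1 rose and 1 fell, with 3.70% of all tested genes called in either direction. With no filter on low counts 2 rose and 2 fell, with DESeq2 2 rose, with the compared groups alone or without Cre library 3 3 rose, and without Cre library 2 2 fell. Ltc4s, the leukotriene C4 synthase, rose by 0.37 (adjusted p = 0.00239), and Upk1b, a tetraspanin, was at 48.2, 38.1 and 52.4 CPM in Cre and 26.7, 26.5 and 26.3 CPM in Mef2aKO (-0.79, SE 0.13, adjusted p = 0.000153). Tmem119, a transmembrane marker of microglia, was at 727, 663 and 813 CPM in Cre and 881, 912 and 836 CPM in Mef2aKO. The groups did not overlap but the gene missed the threshold (0.26, SE 0.08, adjusted p = 0.0645). P2ry12, a purinergic receptor, and Cx3cr1, the fractalkine receptor, had log2 fold changes of 0.01 and -0.05. Of 20 lineage transcription factors 1 rose, beside 1.47% of all tested genes. It was Etv5, by 0.22 (adjusted p = 0.0193), and it lost its call with no filter (0.21) and without Cre library 1 or 2 or Mef2aKO library 1 or 2 (0.23, 0.19, 0.21 and 0.21).

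Cybb, the catalytic subunit of the phagocyte NADPH oxidase that makes superoxide, was at 118, 124 and 116 CPM in Cre and 21.5, 28.0 and 36.1 CPM in Mef2aKO. The 3 Cre libraries lay close together, and the highest Mef2aKO library was under all of them (-2.08, SE 0.21, adjusted p = 4.1e-08). For Cybb this lack of overlap was a condition of its selection among the largest decreases. Sema6d, a transmembrane semaphorin, was at 14.1, 9.68 and 10.1 CPM in Cre and 3.497, 3.23 and 1.07 CPM in Mef2aKO (-2.11, SE 0.26, adjusted p = 9.87e-07). Ace, the angiotensin-converting enzyme, was at 16.8, 19.0 and 15.7 CPM in Cre and 4.06, 4.03 and 3.22 CPM in Mef2aKO (-2.18, SE 0.30, adjusted p = 8.36e-06). An antibody to Ace was in the staining panel per the labels, but Ace is not in the name of the gate. Spred3, an inhibitor of Ras signalling, fell by 3.21, Chst3, a chondroitin sulfotransferase, by 2.57, Arnt2, a bHLH-PAS factor, by 1.96 and Atp6v0d2, a subunit of the vacuolar proton pump, by 2.18 on the log2 scale. Those 4 genes and Cybb, Sema6d and Ace held their call when any 1 library was left out.

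Markers of border macrophages, the macrophages of meninges and perivascular spaces, fell in this gate. Of 8 tested, 5 fell and none rose, beside 2.23% of all tested genes that fell, and the list's summed level was 191, 121 and 106 CPM in Cre and 52.6, 43.8 and 60.2 CPM in Mef2aKO. Mrc1, the mannose receptor CD206, was at 89.6, 53.4 and 42.1 CPM in Cre and 9.26, 7.53 and 13.1 CPM in Mef2aKO (-2.65, SE 0.37, adjusted p = 1.27e-05). Cd163, a haemoglobin scavenger receptor, was at 16.8, 8.88 and 9.39 CPM in Cre and 1.80, 0.269 and 1.43 CPM in Mef2aKO (-3.26, SE 0.66, adjusted p = 0.00203). F13a1, a transglutaminase subunit, was at 18.1, 12.9 and 7.48 CPM in Cre and 0.189, 0.807 and 2.03 CPM in Mef2aKO (-3.77, SE 0.59, adjusted p = 5.6e-05). Cre library 1 was the highest for each of these genes. The groups did not overlap, which was a condition of their selection among the largest decreases.

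Lyve1, a hyaluronan receptor, and Cbr2, a carbonyl reductase, fell by 2.92 and 1.83 on the log2 scale. Lyve1 lost its call with DESeq2 (-2.85, adjusted p = 0.116) and without Cre library 1 (-1.85, adjusted p = 0.395), Mef2aKO library 1 (-2.62, adjusted p = 0.148) or Mef2aKO library 2 (-2.76, adjusted p = 0.116), and Cbr2 without Cre library 1 or 3 or any Mef2aKO library (-1.57 to -2.0). Without Cre library 1, Mef2aKO library 1 or Mef2aKO library 2, 3 of the 8 markers were called. Folr2, a folate receptor, Pf4, a platelet chemokine, and Ms4a7, a tetraspanning surface protein, did not pass and had log2 fold changes of -0.21, -0.42 and 0.08. In bulk RNA, fewer border macrophages in the gate and less of these transcripts per cell cannot be told apart. Cd93, a receptor of myeloid and endothelial cells that is not on the list, moved with these markers, at 8.98, 5.58 and 3.48 CPM in Cre and 0.284, 0.403 and 1.07 CPM in Mef2aKO (-3.42, adjusted p = 0.000719).

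MHC class II genes, which load and present peptides to CD4 T cells, fell in part. Of 10 tested, 4 fell and none rose, beside 2.23% of all tested genes that fell, with a median of -0.41. H2-Aa was at 38.5, 31.5 and 29.8 CPM in Cre and 9.64, 7.39 and 12.7 CPM in Mef2aKO (-1.75, SE 0.36, adjusted p = 0.00239), and H2-Eb1 at 25.8, 24.3 and 20.7 CPM against 8.41, 4.70 and 6.93 CPM (-1.80, SE 0.33, adjusted p = 0.000496). Cd74, the invariant chain, was at 150, 139 and 139 CPM in Cre and 76.6, 71.1 and 82.0 CPM in Mef2aKO (-0.90, SE 0.19, adjusted p = 0.00318). H2-Ab1 fell by 0.77 (adjusted p = 0.0191) and lost its call with DESeq2 (-0.78, adjusted p = 0.086) and without Cre library 1 (-0.67, adjusted p = 0.135), Mef2aKO library 1 (-0.77, adjusted p = 0.0741) or Mef2aKO library 2 (-0.72, adjusted p = 0.097). The transactivator Ciita (-0.69) and the chaperones H2-DMa (0.27) and H2-DMb1 (-0.05) did not pass. With no filter on low counts, with a replicate block or with the compared groups alone, 1 gene of the list rose. H2 genes are close paralogs, and reads shared between them could be split by the counting. The border-macrophage sum given above moved the same way, and its part in the MHC class II result was not tested, nor was that of the dendritic cell and B cell markers given next.

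The summed markers of several other cell types were also lower in Mef2aKO. Monocyte markers summed to 1781 to 2153 CPM in Cre and 1115 to 1520 CPM in Mef2aKO, mostly Fn1, and Chil3 had no read. Endothelial markers summed to 209 to 234 CPM and 163 to 195 CPM, mostly Flt1, a VEGF receptor, while Cldn5 and Tek had no read. This sum does not describe the endothelial markers as a set. Of 5 tested, 2 had log2 fold changes below 0 and 3 above, with a median of 0.26. B cell markers summed to 12.3 to 14.8 CPM and 7.64 to 9.92 CPM, and T and NK cell markers to 5.74 to 7.29 CPM and 3.46 to 4.84 CPM. These 4 sums did not overlap between the groups. Their part in the other results was not tested.

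The sums of other types overlapped or were near 0. Neutrophil markers summed to at most 0.348 CPM in any of the 6 libraries, and 7 of 9 listed T and NK cell markers, including Cd3d, Cd3e and Cd3g, had no read. Oligodendrocyte markers summed to 170 to 198 CPM in Cre and 173 to 185 CPM in Mef2aKO, astrocyte markers to 105 to 115 CPM and 99.2 to 126 CPM, and dendritic cell markers to 531 to 614 CPM and 544 to 626 CPM. Single members of these lists were called, where 3.70% of all tested genes were called in either direction. Of 7 tested dendritic cell markers 2 fell, the lectin Cd209a by 3.83 (adjusted p = 0.0239) and the transcription factor Zbtb46 by 1.21 (adjusted p = 0.0435). Of 5 endothelial markers Flt1 fell by 0.49 (adjusted p = 0.000717), while the cadherin Cdh5 and the VEGF receptor Kdr rose by 0.95 (adjusted p = 0.0224) and 0.44 (adjusted p = 0.0314). The T cell coreceptor Cd4 fell by 2.50 (adjusted p = 0.0349) and the myelin protein Mbp by 0.28 (adjusted p = 0.028). Flt1 kept its call under all alternatives tried, and each of the other 6 lost it in 3 to 6 of 13 refits.

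Inflammatory genes moved in both directions. Over all tested genes, 2.23% fell and 1.47% rose. Il1b, the cytokine interleukin-1 beta, was at 31.3, 28.1 and 24.0 CPM in Cre and 16.3, 16.8 and 15.9 CPM in Mef2aKO (-0.78, SE 0.14, adjusted p = 0.000398). Il1rn, the antagonist of its receptor, was at 25.05, 21.5 and 22.4 CPM in Cre and 13.3, 12.1 and 15.0 CPM in Mef2aKO (-0.77, SE 0.16, adjusted p = 0.002). The groups did not overlap for the cytokine or its antagonist. Of 22 tested cytokine and NF-kB feedback genes, 3 fell and 1 rose: the third decrease was Tnfaip3, an NF-kB inhibitor (-0.36, adjusted p = 0.00774; without Cre library 1 -0.28, adjusted p = 0.111), and the increase was Nlrp3, an inflammasome sensor (0.23, adjusted p = 0.0273), which lost its call with no filter (0.22) and without Cre library 2 or 3 or Mef2aKO library 1 or 2 (0.25, 0.18, 0.22 and 0.20). Tnf and Il1a had log2 fold changes of -0.08 and -0.12 and did not pass. Of 17 chemokines, 3 fell and 1 rose. Ccl9, a CC chemokine, was at 213, 230 and 244 CPM in Cre and 165, 159 and 156 CPM in Mef2aKO (-0.51, SE 0.09, adjusted p = 0.000147). The increase was Ccl12 (0.47, adjusted p = 0.0127), which lost its call without Cre library 1 (0.37, adjusted p = 0.151), Cre library 2 (0.40, adjusted p = 0.102) or Mef2aKO library 2 (0.42, adjusted p = 0.0915). Ccl22, which attracts T cells, fell by 1.87 (adjusted p = 0.0401) and lost its call with DESeq2 (-1.92, adjusted p = 0.0659) and without Cre library 2 or 3 or Mef2aKO library 1 or 2 (-1.99, -1.53, -1.49 and -1.52).

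Egr2, a zinc finger factor of the immediate early response, was at 63.1, 72.4 and 58.8 CPM in Cre and 42.2, 40.3 and 39.6 CPM in Mef2aKO (-0.67, SE 0.10, adjusted p = 4.61e-05). It and Klf4 were the 2 of 22 immediate early genes that fell, beside 2.23% of all tested genes, and none rose. The log2 fold change was below 0 in 21 of the 22, with a median of -0.37. Immediate early genes vary with the handling of cells, and most had wide errors: Fos was at 441 CPM in Cre and 312 CPM in Mef2aKO on average (-0.50, adjusted p = 0.727). With the spread estimated from the compared groups alone 9 of the 22 fell, and with no filter on low counts 13 fell. With DESeq2, or without Cre library 1, Cre library 3 or Mef2aKO library 3, 1 fell.

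Genes of cholesterol and fatty acid synthesis leaned upward. Of 26 tested, 4 rose and none fell, beside 1.47% of all tested genes that rose. The log2 fold change was above 0 in 22 of the 26, and the median was 0.23, against 0.00446 over all tested genes. Srebf1, the transcription factor that drives fatty acid synthesis, was at 199, 187 and 191 CPM in Cre and 259, 248 and 246 CPM in Mef2aKO (0.38, SE 0.05, adjusted p = 1.66e-05). All Mef2aKO libraries exceeded all Cre libraries for Srebf1, and its call held when any 1 library was left out. Fasn, fatty acid synthase, rose by 0.26 (adjusted p = 0.00921) and lost its call without Cre library 3 (0.20, adjusted p = 0.101) or Mef2aKO library 1 (0.24, adjusted p = 0.054). Scd2, a stearoyl-CoA desaturase, rose from 830 to 1007 CPM on average (0.28, adjusted p = 0.0354) and lost its call without Cre library 1 or any 1 Mef2aKO library (0.21 to 0.30). Without Mef2aKO library 1, 2 genes of the list were called. The sterol demethylase Cyp51 and the sterol-sensing factor Srebf2 did not pass, with log2 fold changes of 0.37 and 0.28. Pltp, a phospholipid transfer protein, was the 1 gene of 26 for lipid uptake and export that fell (-0.80, adjusted p = 0.00154), beside 2.23% of all tested genes.

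Several programmes held no called gene by edgeR. None of 35 interferon-response genes passed, and their median was -0.05. None of 30 cell-cycle genes passed, although 26 had log2 fold changes above 0 (median 0.20). None of 16 TREM2-DAP12 signalling genes, 17 TGF-beta signalling genes, 20 Polycomb genes or 23 oxidative phosphorylation genes passed. In the order given, 1, 4, 3, 1, 3 and 1 genes of these lists had an unadjusted p under 0.05, and DESeq2 called 0 in each. For the lists that follow, 2.23% of all tested genes fell and 1.47% rose. Of 33 lysosomal genes, Gpnmb and Atp6v0d2 fell. Of 17 complement and Fc receptor genes 3 fell and 2 rose, the anaphylatoxin receptor C5ar1 (0.27, adjusted p = 0.0144) and the Fc receptor Fcgr4 (0.40, adjusted p = 0.0434). C5ar1 lost its call in 4 of 13 refits and Fcgr4 in 7 of 12. Fcgr4 and the Fc receptor Fcgr3, which fell (-0.35, adjusted p = 0.0105), lie between 170 and 180 Mb of chromosome 1, in the stretch described below. Without Cre library 1, Cre library 2 or Mef2aKO library 1 none of the 17 rose. Of 17 glycolysis genes 1 fell, the glucose transporter Slc2a1 (-0.24, adjusted p = 0.0101), and it lost its call without Cre library 3 (-0.22, adjusted p = 0.056) or Mef2aKO library 1 (-0.22, adjusted p = 0.0692).

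**Figure D3:**
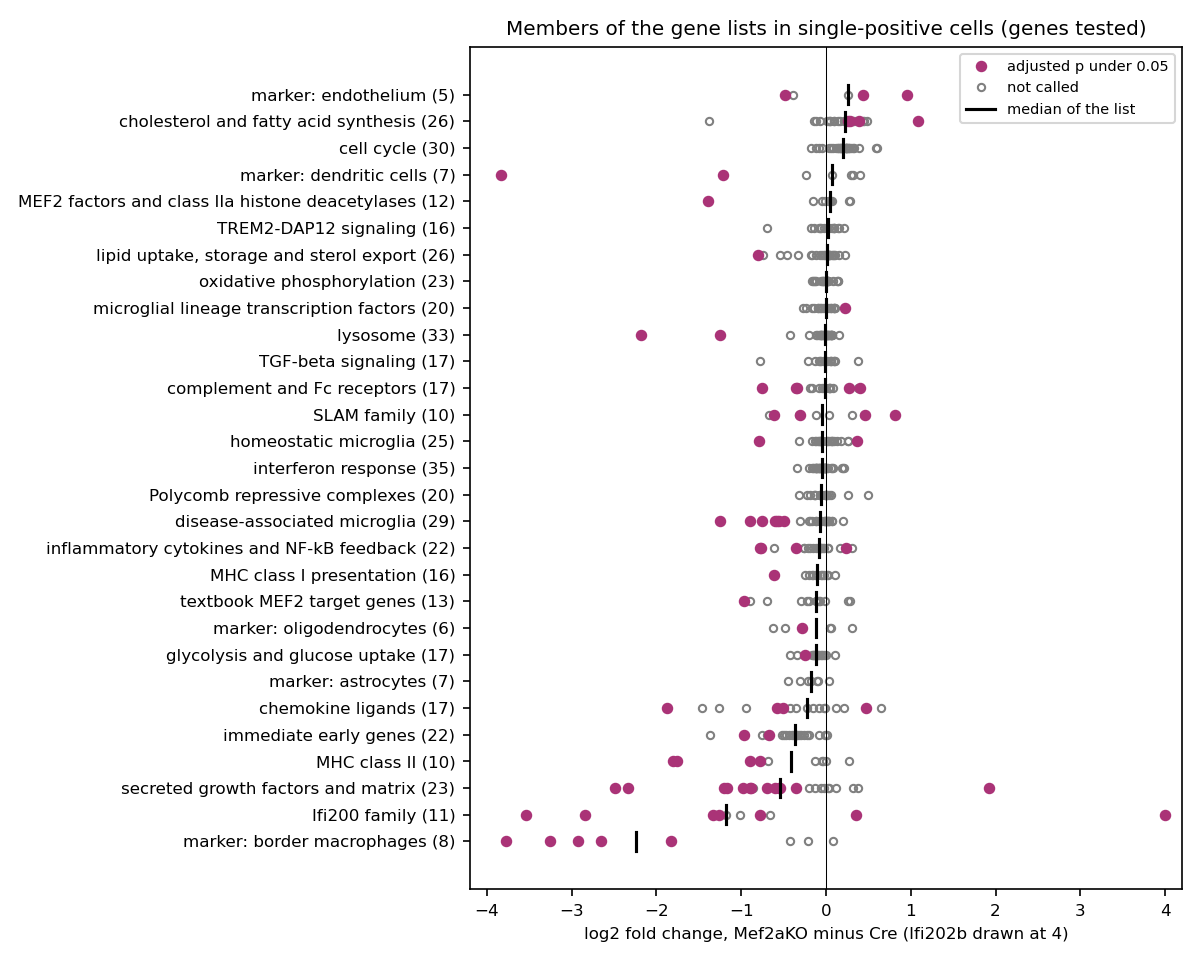
Log2 fold change (Mef2aKO minus Cre) of every tested member of the gene lists, filled where the adjusted p was under 0.05, with a bar at each list's median and the number of tested genes in parentheses. Border macrophage and Ifi200 genes have the lowest medians of the lists drawn, and oxidative phosphorylation genes stay near 0. Ifi202b, at 8.54, is drawn at 4.

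The Ifi200 genes, which encode DNA-binding proteins of the innate immune response, and several SLAM receptors moved in opposite directions within 1 stretch of chromosome 1. Ifi202b (1, 173962569 to 173982844, mm10) was at 0.189, 0 and 0.174 CPM in Cre and 51.8, 49.9 and 46.0 CPM in Mef2aKO. That is 3 reads against 1304, a ratio of 413 with a 95% counting interval of 141 to 2008. Ifi213 was at 40.6, 29.1 and 39.8 CPM in Cre and 4.35, 3.49 and 7.40 CPM in Mef2aKO (-2.84, SE 0.37, adjusted p = 4.1e-06), and Ifi204 at 123, 134 and 159 CPM against 52.9, 51.2 and 60.3 CPM (-1.33, SE 0.16, adjusted p = 5.34e-07). Of 11 tested Ifi200 genes 2 rose, Ifi202b and the DNA sensor Aim2 (0.35, adjusted p = 0.000428), and 5 fell. Over all tested genes, 1.47% rose and 2.23% fell. These genes are near-identical copies in part, so reads could be assigned to the wrong member.

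Igsf8, a tetraspanin partner in the same stretch, was at 136, 131 and 128 CPM in Cre and 321, 338 and 318 CPM in Mef2aKO (1.31, SE 0.08, adjusted p = 1.0e-12). F11r, the junctional adhesion molecule JAM-A, was at 381, 389 and 448 CPM in Cre and 201, 218 and 233 CPM in Mef2aKO (-0.90, SE 0.09, adjusted p = 3.47e-08). Neither gene overlapped between groups, which for Igsf8 was a condition of its selection among the largest increases. Itln1, a secreted lectin, had no read in Cre and 78 reads over the Mef2aKO libraries, at least 24.7-fold higher against a floor of 3 counts over the Cre group. The SLAM receptors Slamf6 and Slamf8 rose by 0.81 (adjusted p = 3.57e-05) and 0.46 (adjusted p = 0.00621), and Cd48 fell by 0.30 (adjusted p = 0.00868). Slamf6 did not pass on the transcript listed in the deposited TPM table (0.39, adjusted p = 0.1), Slamf8 did not without Cre library 2 (0.37, adjusted p = 0.0775), and Cd48 did not without Mef2aKO library 1 (-0.24, adjusted p = 0.105). Ly9, which encodes the sorted protein CD229, was at 58.7, 30.9 and 29.4 CPM in Cre and 25.3, 27.7 and 27.1 CPM in Mef2aKO (-0.62, adjusted p = 0.0249). Cre library 1 stood apart for Ly9, and without it the log2 fold change was -0.18 (adjusted p = 0.667). The Ly9 call was also lost without any 1 Mef2aKO library (-0.58 to -0.64).

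Between 170 and 180 Mb of chromosome 1, 27 of 99 tested genes were called (27.3%), 10 higher and 17 lower, against 3.52% of all other tested genes. Of 252 windows of 10 Mb with at least 10 tested genes, this one had the highest share. The next share was 20%, also on chromosome 1, at 100 to 110 Mb (2 of 10 genes) and at 120 to 130 Mb (4 of 20). Between 110 and 120 Mb 0 of 10 genes were called, and between 130 and 140 Mb 9 of 73. The median over all windows was 3.12%. Map3k19 and Ctse start at bases 127815271 and 131638314 of this chromosome. Hsd17b7 starts at base 169949537, just outside the window of 170 to 180 Mb. Within 10 Mb of Mef2a on chromosome 7, 3 of 31 tested genes fell: Atp10a, a phospholipid flippase, by 1.64, Igf1r, the IGF-1 receptor, by 0.49 and Chsy1, a chondroitin synthase, by 0.44 on the log2 scale. Atp10a was at 47.8, 45.3 and 48.0 CPM in Cre and 15.7, 14.1 and 15.4 CPM in Mef2aKO (adjusted p = 1.11e-10). Further from Mef2a on chromosome 7, 8 of 133 tested genes were called between 20 and 30 Mb and 6 of 73 between 30 and 40 Mb. Over all tested genes, 3.70% were called. Nccrp1, Spred3, Zfp30, Zfp14 and Haus5 lie between bases 28543596 and 30664994. Each was called in the same direction in all 5 populations compared below. The labels give C57BL/6 for both groups. The part of genetic background, in these regions or elsewhere in the genome, was not tested. With the 99 genes between 170 and 180 Mb of chromosome 1 (below, the chromosome 1 window) left out, 447 genes were called.

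**Figure D4:**
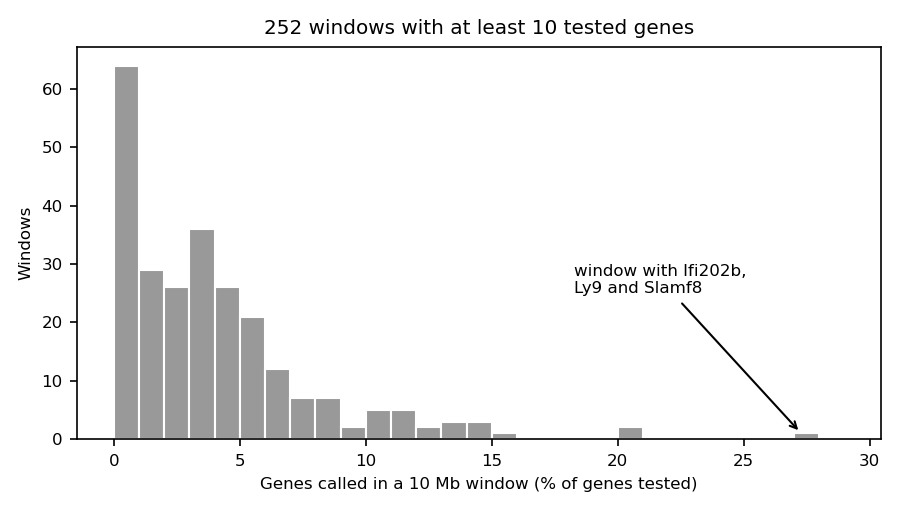
Number of 10 Mb windows (at least 10 tested genes) by the percent of their tested genes that were called in single-positive cells. Most of the 252 windows are under 10%, and the window with Ifi202b, Ly9 and Slamf8 is at 27.3%.

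The same genotypes were compared in 4 other populations of the table: microglia of mice without cuprizone that were not split by these 3 proteins (baseline), and the Clec7a-negative, Clec7a and CD229 double-positive, and triple-positive gates at 5 weeks of cuprizone. No library is shared between these comparisons. They called 507 (3.84%), 730 (5.53%), 647 (4.90%) and 619 (4.69%) genes, and the Clec7a-negative Mef2aKO group had 2 libraries. Of the 488 genes called in single-positive cells, 311 (63.7%, and 48.1% of the double-positive list) were called in the same direction in double-positive cells. In triple-positive cells it was 310 (63.5%, and 50.1%), in Clec7a-negative cells 203 (41.6%, and 27.8%) and at baseline 142 (29.1%, and 28.0%). The 76 genes called in the same direction in all 5 comparisons included Cybb, Vegfa, Spred3, Hmga2, Atp10a, H2-Aa and Rgs7bp, and 13 of the 76 lie in the chromosome 1 window.

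The difference between gates was tested gene by gene, in the fit without a replicate block, which takes libraries of different gates as independent. No gene differed between the single-positive and the double-positive effect, or between the single-positive and the triple-positive effect, by edgeR. At an unadjusted p under 0.05 there were 471 and 475 such genes of 13204 tested, and DESeq2 called 0 and 3. The 471 and 475 are each a smaller share of the tested genes than the 0.05 that this threshold gives when no gene differs. A share below 0.05 does not measure how alike the effects are, and its cause was not tested. Against baseline, 82 genes differed (0.621%). Itgax was -0.75 in single-positive cells and 0.29 at baseline, a difference of -1.04 (SE 0.19, adjusted p = 0.00388). H2-Ab1 fell at baseline by 2.49, further than in single-positive cells, a difference of 1.71 (SE 0.32, adjusted p = 0.00431). Both differences lost their call with the compared groups alone (adjusted p = 0.0572 and 0.1). The count against baseline was 177 without Cre baseline library 3. With a replicate block nested in genotype and diet, 398 genes differed from baseline, 517 from the Clec7a-negative gate, 0 from the double-positive and 10 from the triple-positive gate.

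Against the Clec7a-negative gate 257 genes differed (1.95%), 225 with a more positive value in single-positive cells (1.70%). Of those 225, 188 fell in the Clec7a-negative gate, beside 3.91% of all tested genes. A low value in that gate makes the difference more positive, so this count is partly set by the selection. Gpnmb fell by 1.25 in single-positive and by 3.21 in Clec7a-negative cells, a difference of 1.97 (SE 0.31, adjusted p = 0.000174). Cspg4 fell by 0.89 and by 2.68, a difference of 1.79 (SE 0.15, adjusted p = 1.52e-09). Ctse rose by 2.44 in single-positive cells and was at 0.86 (adjusted p = 0.0506) in Clec7a-negative cells, a difference of 1.57, which lost its call without Mef2aKO library 1 of the Clec7a-negative gate (1.25, adjusted p = 0.114). Of the 35 interferon-response genes, none was called in single-positive cells, 28 fell in Clec7a-negative cells, where 3.91% of all tested genes fell, and 17 differed between them, all with a more positive value in single-positive cells. Without Mef2aKO library 1 of the Clec7a-negative gate, 1 of 2 there, the count of differing genes was 107.

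**Figure D5:**
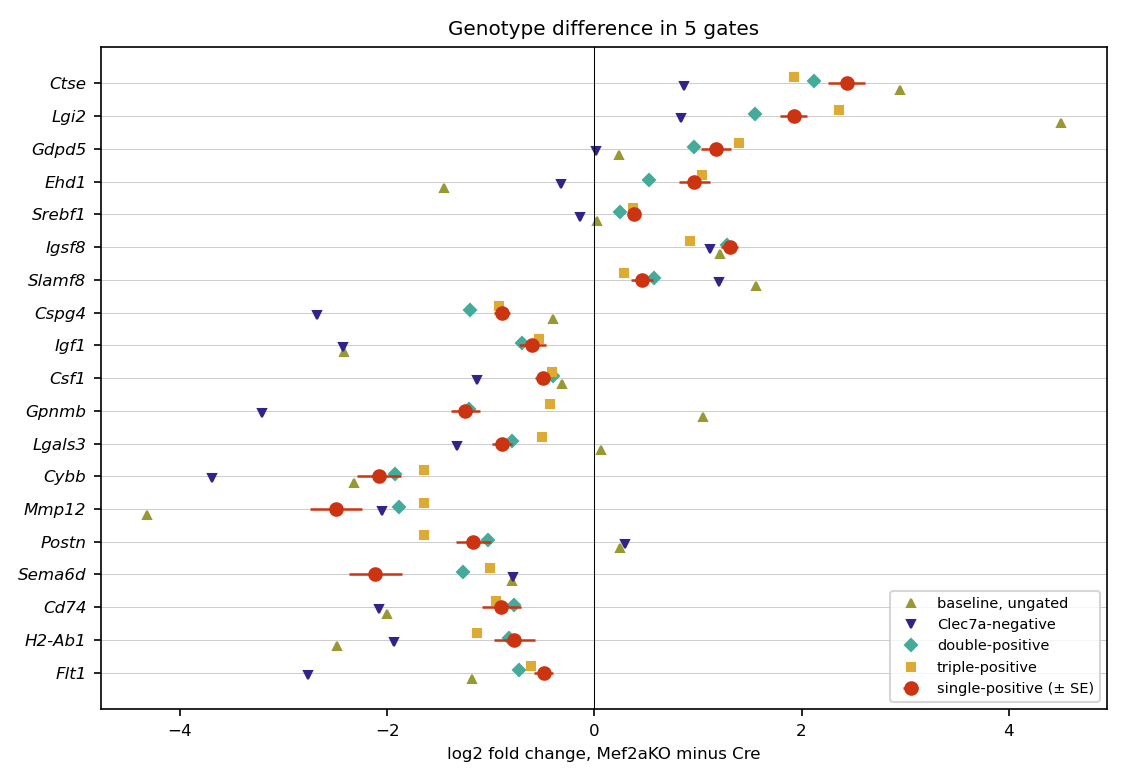
Log2 fold change (Mef2aKO minus Cre) of 19 genes in the 5 populations, with the single-positive value as a large circle and its SE as a bar. The single-positive, double-positive and triple-positive values lie close together for most of these genes, while the Clec7a-negative value is further below 0 for Gpnmb, Cspg4, Flt1 and Igf1.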

How the data were processed

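Polyadenylated RNA of sorted microglia was sequenced as strand-specific (dUTP) libraries, per the labels. The authors deposited raw counts per gene for 29 libraries in 10 groups, with 1 RefSeq transcript per gene. The authors also deposited TPM for the same libraries, used here to compare MEF2 genes with each other and to recover counts of the transcripts that table lists. Whole reads came back from the TPM values: 100% equal to the count for 20331 genes with the same transcript, and 99.9% within 0.05 of a whole number for 4793 genes with another one. The submitters' processing notes name build mm10/GRCm38 and 4 tools (STAR 2.7.0f, HOMER 4.11, DESeq2, fastp 0.20.0), whose roles and settings are not given in the sources used here. Every column was matched to a sample by its name.

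The count model was edgeR 4.0.16 under R 4.3.3, with low genes removed by filterByExpr, TMM scaling, 1 mean per group over all 29 libraries (19 residual degrees of freedom) and quasi-likelihood F tests. The threshold was a Benjamini-Hochberg adjusted p under 0.05 over 13204 genes. SEs were taken from the log2 fold change and its F statistic. The labels do not say that pools of a group came from separate experiments, so p-values measure the spread between pools. Intervals and floors cover counting error only. DESeq2 1.42.0 was an alternative, beside RLE scaling, no filter, a replicate block, only the compared groups and leaving out each library. Refits on the transcripts of the TPM table and without the chromosome 1 window were added after the data were seen.

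Members and gene lists were chosen with earlier results of these data known. Genes were named by rule: the MEF2 and sorting genes, the 15 per direction with the largest change among called genes of at least 5 CPM without overlap, up to 4 called members of each list with the smallest adjusted p, and up to 5 per direction of each difference between gates. Predicted genes were not named. Members of lists, genes of the 2 chromosomal regions and genes with motif matches were also named, after their values were seen. So was Hmga2. Values of a few single genes are not reported here; counts over lists include them.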

Additional observations from a re-analysis of the deposited data

Results flagged for a closer look

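Each value below is the log2 fold change (Mef2aKO minus Cre) in single-positive cells minus that in another gate, for named genes where the test of this difference passed an adjusted p of 0.05 in edgeR. It is a difference between 2 effects of genotype and says nothing of which gate had the higher level: a positive value means that the gene rose more, or fell less, with the genotype in single-positive cells. The fits had no replicate block. Each difference was refitted under up to 20 alternatives.

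Against baseline microglia the differences were positive for Ms4a7, a surface protein of border macrophages (2.94), Pcp4, a calmodulin regulator (2.73), and Ehd1, an endosomal ATPase (2.42). They were also positive for Igf1 (1.82), the interferon-inducible GTPase Iigp1 (1.75), H2-Ab1 (1.71) and Srebf1 (0.36). Ms4a7 fell at baseline and was not called in single-positive cells. The differences were negative for Igf2r, the mannose-6-phosphate receptor (-2.23), Plk2, a kinase (-1.98), Il18rap, a subunit of the interleukin-18 receptor (-1.44), Postn (-1.41), Sema6d (-1.32), Slamf8 (-1.10) and Itgax (-1.04). Genes linked to cell division were negative as well, at -2.21 for Pimreg, -1.93 for Ankle1 and -1.91 for Hmmr. These 3 rose at baseline and were not called in single-positive cells. Levels at baseline were low for many of these genes. Group means there were 0.666 to 5.49 CPM for Ms4a7, Pcp4, Ehd1, Igf1, Iigp1, Igf2r, Plk2, Pimreg, Ankle1 and Hmmr. Their differences therefore rest on few reads at baseline. Of the 17 differences from baseline, 4 kept their call under every alternative: Ms4a7, Ehd1, Postn and Slamf8. Iigp1 lost it under 11 alternatives, Hmmr under 9, Igf1 and Il18rap under 8, Srebf1 under 6, Pimreg under 5, Sema6d under 4 and Igf2r under 3. Pcp4, Plk2, Ankle1, Itgax and H2-Ab1 lost it under 1 each. With the compared groups alone, Igf1 was at 1.81 (adjusted p = 0.225) and Iigp1 at 1.75 (adjusted p = 0.261).

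Against Clec7a-negative microglia most differences were positive. Matrix and adhesion genes were at 3.55 for Emilin2, 1.90 for Fn1 and 1.79 for Cspg4, and the semaphorin receptor Plxna2 was at 3.33. The kinase Ripk4 was at 3.33, Cped1 at 2.68, Baiap2l2 at 2.54, the VEGF receptor Flt1 at 2.27, Gpnmb at 1.97 and Igf1 at 1.83. Ctse was at 1.57, the class I gene H2-Q7 at 1.51, Iigp1 at 1.43, Ehd1 at 1.29, Ifi204 at 1.2, Cd74 at 1.18, Gdpd5 at 1.16 and Lgi2 at 1.09. Smaller positive differences were found for Clec7a (0.71), Csf1 (0.63), Srebf1 (0.52), Scd2 (0.49) and Fasn (0.41). Clec7a defines both gates, so its difference is partly set by the sort. The negative values were Xirp1 (-1.82), Mamld1 (-1.50), Postn (-1.47), Il18rap (-1.42), Sema6d (-1.33) and Slamf8 (-0.74). Some of the largest positive differences rest on few reads in the Clec7a-negative gate. Mean levels there, Cre then Mef2aKO, were 2.43 and 0.176 CPM for Emilin2, 4.25 and 0.237 CPM for Plxna2 and 1.21 and 0.237 CPM for Cped1. Ripk4 was at 0.647 and 0.184 CPM there and was not called in that gate (edgeR adjusted p = 0.244). Baiap2l2 was higher, at 24.3 and 3.11 CPM. The Clec7a-negative Mef2aKO group had 2 libraries. Of the 29 differences, 10 kept their call under every alternative: Baiap2l2, Postn, Gpnmb, Csf1, Srebf1, Cspg4, Slamf8, Flt1, Fn1 and Igf1. Cd74 lost it under 14 alternatives, Cped1 under 11, Iigp1 under 10, Mamld1 under 6, Ripk4 and Xirp1 under 4, and Sema6d and Scd2 under 3. Fasn and Ifi204 lost it under 2, and the other 9 under 1. Without Mef2aKO library 1 of that gate Emilin2 was at 2.63 (adjusted p = 0.235), Plxna2 at 2.80 (adjusted p = 0.0513), Xirp1 at -1.53 (adjusted p = 0.257) and Cped1 at 2.14 (adjusted p = 0.377). Without library 2 of that gate Ripk4 was at 2.35 (adjusted p = 0.201) and Il18rap at -1.06 (adjusted p = 0.14).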

How the results depend on the processing

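The count of 488 genes in single-positive cells was 447 to 610 under other scaling, filtering, tools, transcripts and without the chromosome 1 window, and 315 to 377 with 1 library left out. Leaving out 1 library gave 282 to 815 genes at baseline (815 without Cre library 3), 299 to 666 in Clec7a-negative cells (299 without Mef2aKO library 1), 425 to 549 in double-positive cells and 380 to 540 in triple-positive cells. The difference from baseline then covered 55 to 177 genes, from Clec7a-negative cells 107 to 275, from double-positive cells 0 to 1 and from triple-positive cells 0 to 2. With no filter on low counts these 4 differences covered 269, 473, 4 and 24 genes. DESeq2 gave 161 against baseline and 3 against triple-positive cells. With only the compared groups the baseline comparison fell to 93, the difference from baseline to 25, and that from triple-positive cells rose to 9. With the transcripts listed beside TPM, 1 gene differed from triple-positive cells. The cause of these shifts was not tested.

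Residuals of same-numbered Cre and Mef2aKO libraries correlated at 0.12, 0.03 and 0.01, so the numbers were not taken to pair the genotypes. Within a genotype, residuals of single-positive libraries and same-numbered libraries of another population correlated at -0.029 to 0.13. Those with other numbers correlated at -0.126 to 0.101. Same-numbered pairs were all above the others for Mef2aKO double-positive (0.062 to 0.093 against -0.074 to -0.019) and Cre triple-positive cells (0.041 to 0.13 against -0.072 to 0.019). The same held for Mef2aKO Clec7a-negative cells (0.036 to 0.071 against -0.071 to 0.032). The ranges overlapped at baseline, in Cre Clec7a-negative and double-positive cells and in Mef2aKO triple-positive cells. A replicate block gave 520 genes in single-positive cells, against 488 without it. A replicate block nested in genotype and diet gave 398 genes for the difference from baseline, 517 from Clec7a-negative and 10 from triple-positive cells. Without a block these counts were 82, 257 and 0, in a fit that takes libraries of different populations as independent. Whether same-numbered libraries came from the same mice was not tested. Of 94 named genes that were called, 56 kept their call under every alternative, and none changed direction. The Clec7a-negative Mef2aKO group had 2 libraries, and leaving 1 out assumes that the other varies like the remaining groups.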
